A study of Mus musculus with 4 samples.

Results

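The genes described here are Ehmt2 and 9 other genes of histone H3 lysine 9 (H3K9) methylation, chosen by name: the methyltransferase genes Ehmt2, Ehmt1, Suv39h1, Suv39h2 and Setdb1, the cofactor genes Wiz and Trim28, and the HP1 reader genes Cbx1, Cbx3 and Cbx5. All 10 of the 10 had UMIs in every section and were kept, out of 32285 features in the whole table. They were set beside 1135 genes named Olfr, the olfactory receptors, which as a set served as a measure of background counts. Whether any of these genes is expressed in the pancreas was not tested. Ehmt2 (also called G9a) and Ehmt1 (GLP) work as a heterodimer that places mono- and dimethylation on H3K9 in euchromatin, with the zinc finger protein Wiz holding the complex on chromatin. Suv39h1 and Suv39h2 place the trimethylation of pericentromeric heterochromatin, and Setdb1 is brought by the scaffold Trim28 (KAP1) to sequences bound by zinc finger repressors. The HP1 proteins encoded by Cbx5 (HP1 alpha), Cbx1 (HP1 beta) and Cbx3 (HP1 gamma) bind methylated H3K9.

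The sections came from C57Bl/6 mice of 4 weeks of age, 2 labelled as PDX1-Cre wild type (Ehmt2 +/+) and 2 labelled as EHMT2 knockout with the same Cre (Ehmt2 fl/fl). Every mouse carried Pdx1-Cre, and all 4 were fasted for 12 h, given caerulein, which induces acute pancreatitis, at 50 μg/kg in 8 hourly intraperitoneal injections, and killed 18 h after the first dose, so that no untreated section is compared here. Pdx1-Cre acts in the pancreatic epithelium, and the immune, stromal and vascular cells of an Ehmt2 fl/fl section keep their Ehmt2. In the CytAssist Visium assay, pairs of gene-specific probes were counted by unique molecular identifier (UMI) in spots of formalin-fixed tissue, each spot holding several cells or parts of cells. Since the positions and the number of probes per gene are not given in the sources used here, levels were not compared between members, and the Ehmt2 count is no check of the deletion: a probe outside the deleted part still counts.

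The library of Ehmt2 +/+ 1 stood apart from the other 3. Over tissue it held 43803829 UMIs at a median of 6285 per spot, and the other sections held 7000825 to 8697030 UMIs at medians of 759 to 932. Olfr genes took 0.0312% of its UMIs and 0.634% to 1.48% of the UMIs elsewhere. Of the UMIs, 65.2% and 53.2% in the Ehmt2 +/+ sections and 22.3% and 21.5% in the Ehmt2 fl/fl sections were of 38 digestive enzymes, so every other gene gains in CPM (UMIs per 1000000 UMIs of the section) when they are few. Values are therefore also given as enzyme-free CPM, per 1000000 UMIs outside the digestive enzymes. All 8 acinar markers were found in every section. The summed markers of some other cell types also moved with the label. The 8 fibroblast markers came to 426 and 607 CPM in the Ehmt2 +/+ sections and 2076 and 1980 CPM in the Ehmt2 fl/fl sections. The 8 macrophage markers came to 69.0 and 131 CPM against 750 and 629 CPM, with no marker of either list at 0. The 10 islet markers overlapped, at 1148 and 893 CPM against 6484 and 969 CPM. In CPM, 91.1% of the 20066 genes that passed the filter on low counts were higher in both Ehmt2 fl/fl sections. The part of these cell types in the values below was not tested, and fewer cells of a type cannot be told apart from less RNA per cell. The 4 Y-linked genes Ddx3y, Uty, Kdm5d and Eif2s3y had 2 and 1 UMIs in the Ehmt2 +/+ sections and 277 and 432 in the Ehmt2 fl/fl sections, so that genotype and sex cannot be told apart either.

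In the genome (GRCm38, GENCODE vM21), Ehmt2 lies at chr17:34898469-34914052 on the plus strand and Ehmt1 at chr2:24789928-24919614 on the minus strand. Wiz lies on the same chromosome as Ehmt2, at chr17:32354055-32389439 (minus), Suv39h2 on that of Ehmt1, at chr2:3455815-3475031 (minus), and Suv39h1 on the X chromosome, at chrX:8061171-8074760 (minus). Setdb1 is at chr3:95323525-95357202 (minus), Trim28 at chr7:12999114-13031035 (plus), Cbx1 at chr11:96789127-96808640 (plus), Cbx3 at chr6:51470360-51483704 (plus) and Cbx5 at chr15:103191544-103239816 (minus). All 10 matched the RefSeq promoter table (GRCm38.p6), which gives 300 bases around the start that RefSeq has for each gene. That start lay within 45 bases of the GENCODE one for 8 members, and inside the GENCODE gene by 256 bases for Cbx3 and by 25038 bases for Trim28, whose windows are thus downstream of the longest GENCODE model's start. In these windows the dinucleotide CG, which reads the same on both strands, occurred 15 to 34 times, with a median of 25.5 over the members, 7 over all 27025 promoters and 1 over 944 Olfr promoters. A count of 15, the members' lowest (Suv39h1 and Setdb1), was reached by 35.2% of all promoters and by 0% of the Olfr promoters, whose highest count was 13. The choice by name did not use this property, in which the members and the Olfr genes did not overlap.

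The 250 bases before the RefSeq start of Ehmt2, Ehmt1 and Cbx3 are shown, the first pair because their counts diverged within 1 library and the last because its counts separated the genotypes. They are written 5′ to 3′ on the strand of the gene, from RefSeq (GRCm38.p6), at chr17:34898224-34898473 (plus), chr2:24919610-24919859 (minus) and chr6:51470366-51470615 (plus), with each CG in capitals, of which there are 18, 26 and 29.
Ehmt2: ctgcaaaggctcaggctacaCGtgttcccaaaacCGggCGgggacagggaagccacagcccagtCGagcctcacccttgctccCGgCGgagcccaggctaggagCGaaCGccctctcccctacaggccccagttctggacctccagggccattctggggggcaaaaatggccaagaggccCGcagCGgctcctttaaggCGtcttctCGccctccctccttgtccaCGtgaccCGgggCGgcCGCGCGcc
Ehmt1: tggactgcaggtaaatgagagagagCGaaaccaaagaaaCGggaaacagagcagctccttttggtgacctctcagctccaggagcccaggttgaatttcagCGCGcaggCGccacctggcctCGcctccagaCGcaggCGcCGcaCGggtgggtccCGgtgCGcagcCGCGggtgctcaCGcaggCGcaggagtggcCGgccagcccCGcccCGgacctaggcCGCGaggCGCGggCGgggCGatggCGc
Cbx3: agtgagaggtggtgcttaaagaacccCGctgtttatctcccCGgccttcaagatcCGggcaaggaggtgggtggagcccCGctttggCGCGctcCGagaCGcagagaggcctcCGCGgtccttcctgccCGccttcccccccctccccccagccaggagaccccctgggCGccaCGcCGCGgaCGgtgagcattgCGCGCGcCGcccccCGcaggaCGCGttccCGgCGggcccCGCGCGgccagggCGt
These sequences are context for the genes and were not read from the sections.

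In Ehmt2 +/+ 1 the members stood clear of the background, and in the other 3 sections Ehmt2, Suv39h1 and Suv39h2 lay among it. Setdb1 lay among it in Ehmt2 fl/fl 2. The median Olfr gene had 0.251 CPM in Ehmt2 +/+ 1, 5.40 CPM in Ehmt2 +/+ 2, 8.28 CPM in Ehmt2 fl/fl 1 and 12.8 CPM in Ehmt2 fl/fl 2. In Ehmt2 +/+ 1 all 10 members exceeded every Olfr gene, from 9.27 times the Olfr median for Suv39h2 to 212 times for Trim28. In the other 3 sections 6 members, Ehmt1, Wiz, Trim28, Cbx1, Cbx3 and Cbx5, were above the 95th percentile of the Olfr genes in all 3, and only Trim28, Cbx1 and Cbx3 exceeded every Olfr gene in all 3, Trim28 at 5.36, 7.41 and 4.39 times the Olfr median, Cbx1 at 15.2, 14.5 and 8.54 times and Cbx3 at 7.85, 13.8 and 11.7 times. The knocked-out gene was the closest to background. Ehmt2 stood at 78.6 times the Olfr median in Ehmt2 +/+ 1, and at 0.702, 1.26 and 0.927 times in Ehmt2 +/+ 2, Ehmt2 fl/fl 1 and Ehmt2 fl/fl 2, where 79.9%, 34.3% and 57.6% of Olfr genes had as many UMIs or more. A level of Ehmt2 above background was thus not detectable in these 3 sections, 1 of them labelled wild type. Suv39h1, with 23.8%, 21.1% and 56.4% of Olfr genes at or above it, was the next closest. For Setdb1 these were 3.88%, 2.91% and 13.1%.

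**Figure D1:**
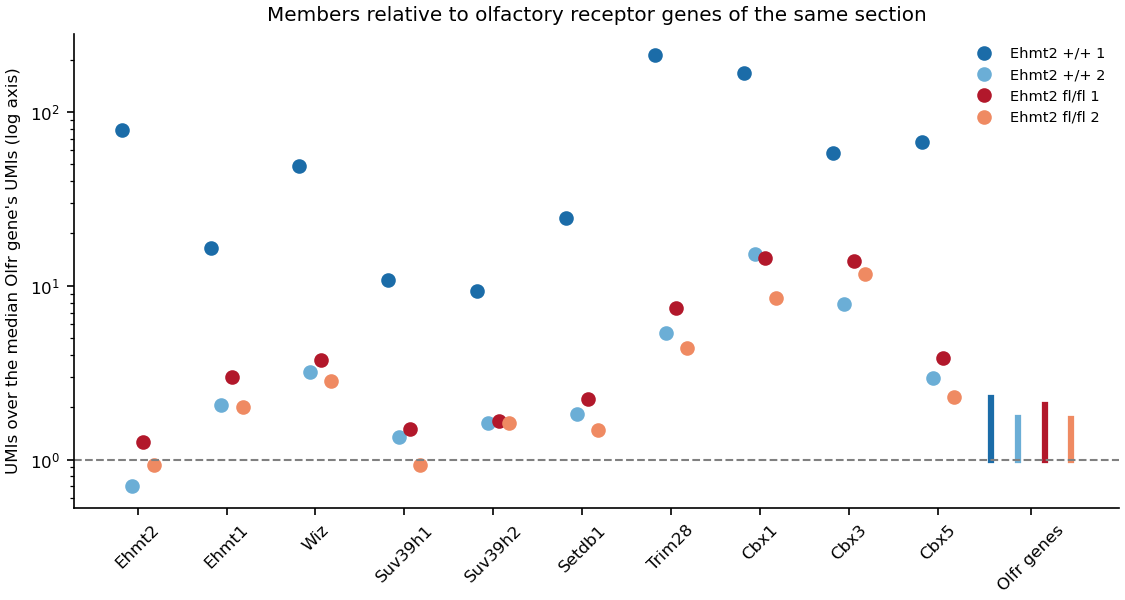
UMIs of each member divided by those of the median Olfr gene of the same section (log axis, 1 point per section), with vertical bars at the right from the median to the 95th percentile of the Olfr genes of each section. The points of Ehmt2 +/+ 1 lie between 9.27 and 212, above those of the other 3 sections for every member, and Ehmt2 lies between 0.702 and 1.26 in those 3.

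Among the methyltransferases of the heterodimer, Ehmt2 had 865 UMIs (19.7 CPM) in Ehmt2 +/+ 1 and 33 UMIs (3.79 CPM) in Ehmt2 +/+ 2, against 73 UMIs (10.4 CPM) in Ehmt2 fl/fl 1 and 101 UMIs (11.9 CPM) in Ehmt2 fl/fl 2. The Ehmt2 +/+ sections were the highest and the lowest of the 4, and the Ehmt2 fl/fl sections lay between them, with overlapping counting intervals (95% exact Poisson, 8.17 to 13.1 and 9.68 to 14.4 CPM). The means were 11.8 CPM ± 11.3 (SD, n = 2) and 11.2 CPM ± 1.03 (SD, n = 2), and the difference was far within the spread (two-sided exact permutation test, p = 1). Ehmt1 behaved otherwise, with 181 UMIs (4.13 CPM) and 97 UMIs (11.2 CPM) in the Ehmt2 +/+ sections and 173 UMIs (24.7 CPM) and 219 UMIs (25.8 CPM) in the Ehmt2 fl/fl sections. Both Ehmt2 fl/fl sections were above both Ehmt2 +/+ sections, with means of 25.2 and 7.64 CPM. The enzyme-free CPM, 11.9 and 23.8 in Ehmt2 +/+ and 31.8 and 32.8 in Ehmt2 fl/fl, did not overlap either. The exact permutation p of each was 0.333, the smallest that the 6 splits of 4 sections allow. Wiz, their zinc finger partner, had 534, 149, 217 and 310 UMIs in Ehmt2 +/+ 1, Ehmt2 +/+ 2, Ehmt2 fl/fl 1 and Ehmt2 fl/fl 2, or 12.2, 17.1, 31.0 and 36.5 CPM. Its enzyme-free CPM was 35.1, 36.6, 39.9 and 46.4, the closest agreement of any member between the 2 Ehmt2 +/+ sections.

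The methyltransferases of heterochromatin had at most 270 UMIs in a section. Suv39h1 had 118, 63, 87 and 102 UMIs in the same order, or 2.69, 7.24, 12.4 and 12.0 CPM, and Suv39h2 had 102, 76, 97 and 176 UMIs, or 2.33, 8.74, 13.9 and 20.7 CPM. For both genes the Ehmt2 fl/fl sections were above the Ehmt2 +/+ sections in CPM, and in enzyme-free CPM the groups overlapped, Suv39h1 at 7.75, 15.5, 16.0 and 15.3 and Suv39h2 at 6.70, 18.7, 17.8 and 26.4. Setdb1 had 270, 86, 129 and 161 UMIs, or 6.16, 9.89, 18.4 and 18.9 CPM, and 17.7, 21.1, 23.7 and 24.1 enzyme-free CPM, without overlap on either scale. Its count in Ehmt2 fl/fl 2 lay within the background, with 13.1% of Olfr genes at or above it. Trim28, the scaffold of Setdb1, had 2330, 252, 430 and 479 UMIs, or 53.2, 29.0, 61.4 and 56.3 CPM. In enzyme-free CPM Trim28 stood at 153, 61.9, 79.1 and 71.7 and Ehmt2 at 56.8, 8.11, 13.4 and 15.1, both highest in Ehmt2 +/+ 1 and lowest in Ehmt2 +/+ 2.

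The HP1 genes differed among themselves. Cbx3 (HP1 gamma) had 640 UMIs (14.6 CPM) and 369 UMIs (42.4 CPM) in the Ehmt2 +/+ sections, against 801 UMIs (114 CPM) and 1270 UMIs (149 CPM) in the Ehmt2 fl/fl sections. Its groups did not overlap in CPM, with means of 28.5 ± 19.7 and 132 ± 24.7 (SD, n = 2 each, 4.63-fold). Nor did they in enzyme-free CPM (42.0, 90.7, 147 and 190, 2.54-fold between the means). The share of spots with a UMI, 9.74%, 3.51%, 9.81% and 13.1%, did not overlap either, each at exact permutation p = 0.333. For the share, the counting intervals of Ehmt2 +/+ 1 (9.01% to 10.5%) and Ehmt2 fl/fl 1 (9.15% to 10.5%) did overlap. Cbx1 (HP1 beta) had 1832, 714, 842 and 931 UMIs, or 41.8, 82.1, 120 and 110 CPM, and 120, 175, 155 and 139 enzyme-free CPM, where the groups overlapped. Cbx5 (HP1 alpha) had 743, 138, 223 and 248 UMIs, or 17.0, 15.9, 31.9 and 29.2 CPM, and 48.8, 33.9, 41.0 and 37.1 enzyme-free CPM, where its Ehmt2 fl/fl values lay between those of Ehmt2 +/+.

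**Figure D2:**
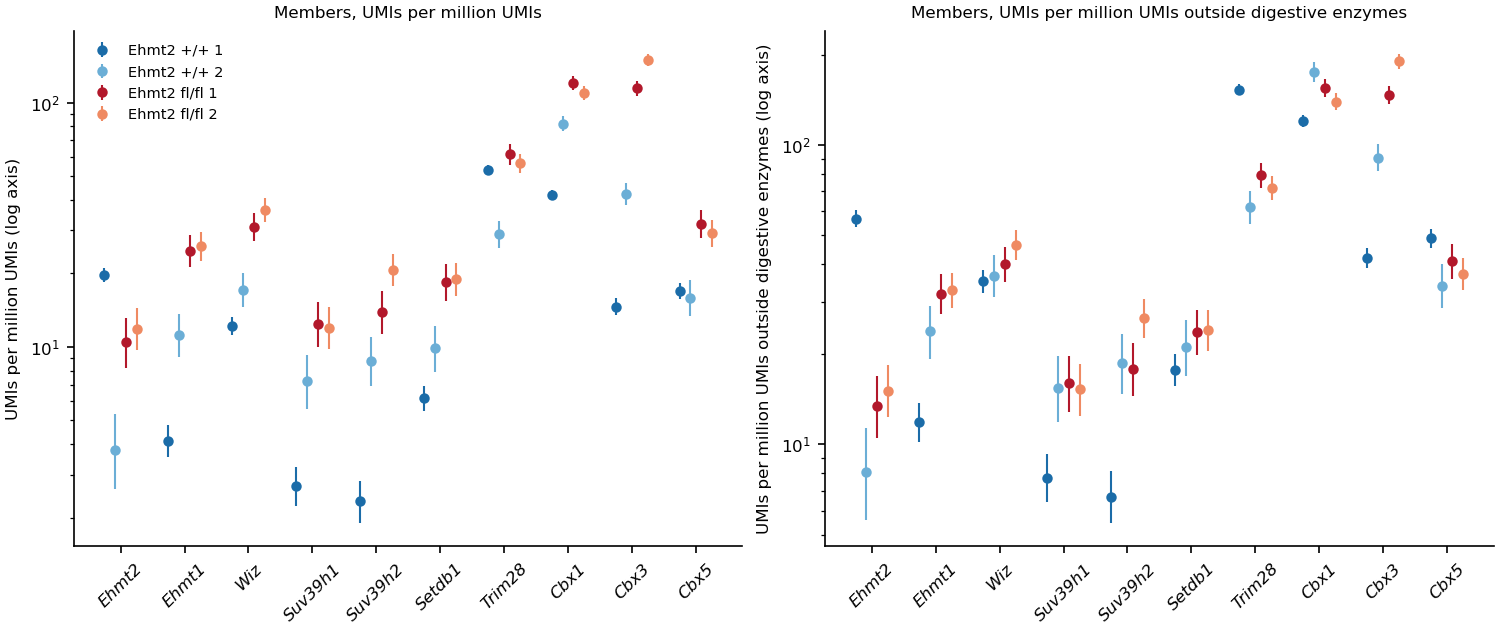
CPM (left) and enzyme-free CPM (right) of each member, on log axes, 1 point per section with its 95% exact Poisson interval for counting error. On the left 9 of the 10 members are higher in both Ehmt2 fl/fl sections, and on the right 4 are: Ehmt1, Wiz, Setdb1 and Cbx3.

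Read against the table as a whole, separations of this kind were as common among all genes as among the members. Both Ehmt2 fl/fl sections were above both Ehmt2 +/+ sections for 9 of 10 members, and so they were for 91.1% of the 20066 genes that passed the filter on low counts. Below both were 0 members and 0.767% of genes. In enzyme-free CPM, 4 of 10 members and 42.0% of genes were above, and 0 of 10 and 6.83% of genes were below. In share of spots with at least 1 UMI, which follows depth, Ehmt2 was found in 12.3% of spots in Ehmt2 +/+ 1 and in 0.321%, 0.949% and 1.17% in the others, beside median shares of the Olfr genes of 0.178%, 0.457%, 0.764% and 1.28%. The mean share over the Ehmt2 fl/fl sections minus that over the Ehmt2 +/+ sections was -5.26 percentage points for Ehmt2 and 4.85 for Cbx3. With each spot thinned to 500 UMIs, Ehmt2 was found in 0.994%, 0.209%, 0.503% and 0.655% of spots and Cbx3 in 0.779%, 2.06%, 5.52% and 7.24%. Thinned shares were higher in both Ehmt2 fl/fl sections for 9 of 10 members, and unthinned shares for 1 of 10, Cbx3. The matching percentages over all genes were not computed for shares of spots. Spots that reached 500 UMIs numbered 6144 and 7871 of the Ehmt2 +/+ spots and 6483 and 6462 of the Ehmt2 fl/fl spots.

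Ratios between members within a section do not depend on library size, and 6 pairs were compared, with p-values not adjusted over the pairs. They do include background counts, whose part in them was not tested. Ehmt2, Suv39h1 and Suv39h2 lay among the Olfr genes in every section but Ehmt2 +/+ 1, and Setdb1 did in Ehmt2 fl/fl 2. Ratios with these genes there need not reflect their expression. The ratio of Ehmt2 to Ehmt1 UMIs was 4.78 (95% exact interval 4.07 to 5.64) in Ehmt2 +/+ 1, and 0.340 (0.222 to 0.510), 0.422 (0.316 to 0.558) and 0.461 (0.361 to 0.586) in Ehmt2 +/+ 2, Ehmt2 fl/fl 1 and Ehmt2 fl/fl 2. The last 3 could not be told apart by counting error, and the split lay between Ehmt2 +/+ 1 and the rest, not between the genotypes. Trim28 to Setdb1 divided the sections in the same way, at 8.63 in Ehmt2 +/+ 1 and at 2.93, 3.33 and 2.98 in the others, and so did Cbx5 to Cbx1, at 0.406 and then 0.193, 0.265 and 0.266. Cbx3 to Cbx1 did follow the label, at 0.349 (0.319 to 0.382) and 0.517 (0.455 to 0.587) in the Ehmt2 +/+ sections and 0.951 (0.863 to 1.05) and 1.36 (1.25 to 1.49) in the Ehmt2 fl/fl sections. That is a mean difference of 1.42 on the log2 scale (exact permutation test, p = 0.333), and the 2 sections of each genotype also differed beyond counting error. Wiz to Ehmt1 was 2.95 and 1.54 against 1.25 and 1.42, and Suv39h1 to Suv39h2 was 1.16 and 0.829 against 0.897 and 0.580. The first of these did not overlap between the genotypes, at p = 0.333 by the exact permutation test, and the second did. A p of 0.333 is the smallest that the 6 splits of 4 sections allow in this test. The share of all pairs of genes whose ratios separate in this way was not computed, so these separations are a description.

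**Figure D3:**
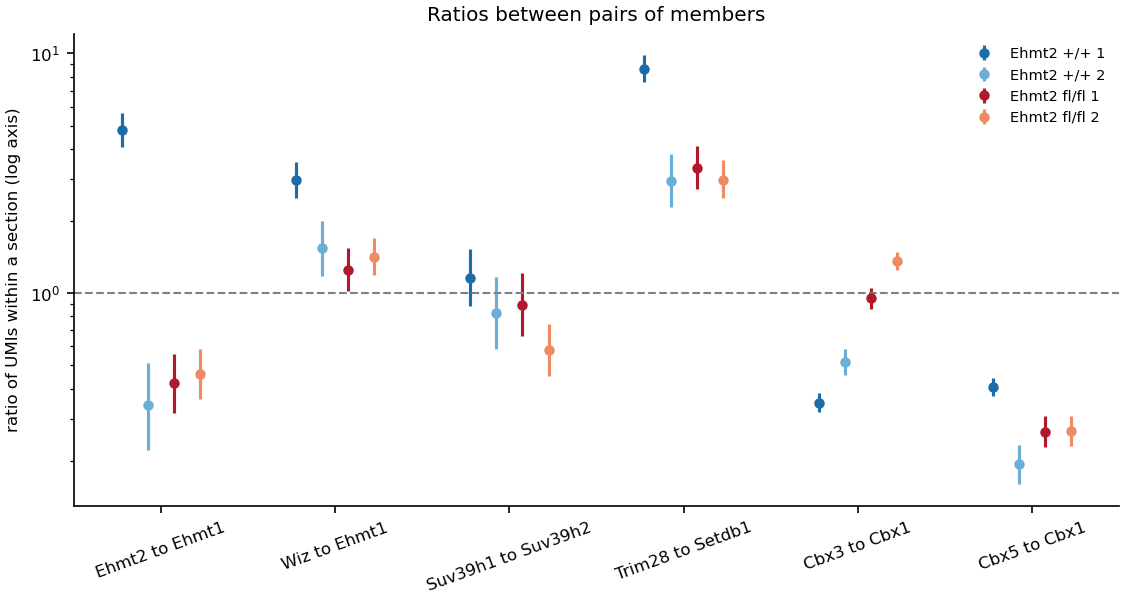
Ratio of the UMIs of 2 members within each section (log axis) with 95% exact binomial intervals, which cover counting error only. Ehmt2 to Ehmt1 is 4.78 in Ehmt2 +/+ 1 and 0.340 to 0.461 in the other 3 sections, and Cbx3 to Cbx1 is 0.349 and 0.517 in Ehmt2 +/+ against 0.951 and 1.36 in Ehmt2 fl/fl.

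Between the genotypes, no member was called in the fit over all genes. Of 20066 genes tested with edgeR, 19 (0.0947%) had an adjusted p under 0.05, and of the 10 members 0 did. At an unadjusted p under 0.05 were 1005 of the genes and 1 member, Ehmt2. DESeq2 called 401 of the 20066 genes and 0 members, but gave an adjusted p for only 3 of the 10 (Trim28, Cbx1 and Cbx3), so the other 7, Ehmt2 among them, could not be called by it. Ehmt2 had a log2 fold change, Ehmt2 fl/fl over Ehmt2 +/+, of -2.65 (SE 0.79, edgeR adjusted p = 0.226). Without Ehmt2 +/+ 1 it was 0.66 (SE 0.48). The fold changes of the other members were -1.79 for Trim28, -1.22 for Cbx5, -0.91 for Cbx1, -0.76 for Wiz, -0.68 for Setdb1, -0.37 for Suv39h1, 0.05 for Ehmt1, 0.08 for Suv39h2 and 0.55 for Cbx3, with SE of 0.67 to 0.997 and adjusted p of 0.872 to 0.975. Their median, Ehmt2 included, was -0.72, beside 0.25 over all genes and 0.80 over 1105 Olfr genes.

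The sign of these values rested on the scaling. Without TMM factors the median of all genes moved from 0.25 to 1.64, and 9 of 10 members were positive, at up to 2.22 (Cbx3). With the summed Olfr UMIs as library size it moved to -1.20, and 10 of 10 were negative, down to -5.12 (Ehmt2). Under DESeq2 it was -0.04, and 1 of 10, Cbx3, was positive. Leaving out Ehmt2 +/+ 2 left Ehmt2 +/+ 1 alone for its genotype, taken to vary like the others. There 9 of 10 members were negative, from -3.71 (Ehmt2) to 0.28 (Cbx3). Leaving out Ehmt2 +/+ 1 instead made 8 of 10 positive, from -0.40 (Cbx1) to 0.73 (Cbx3). Calls of these fits are not given, since the spread within a group of 1 section cannot be measured.

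**Figure D4:**
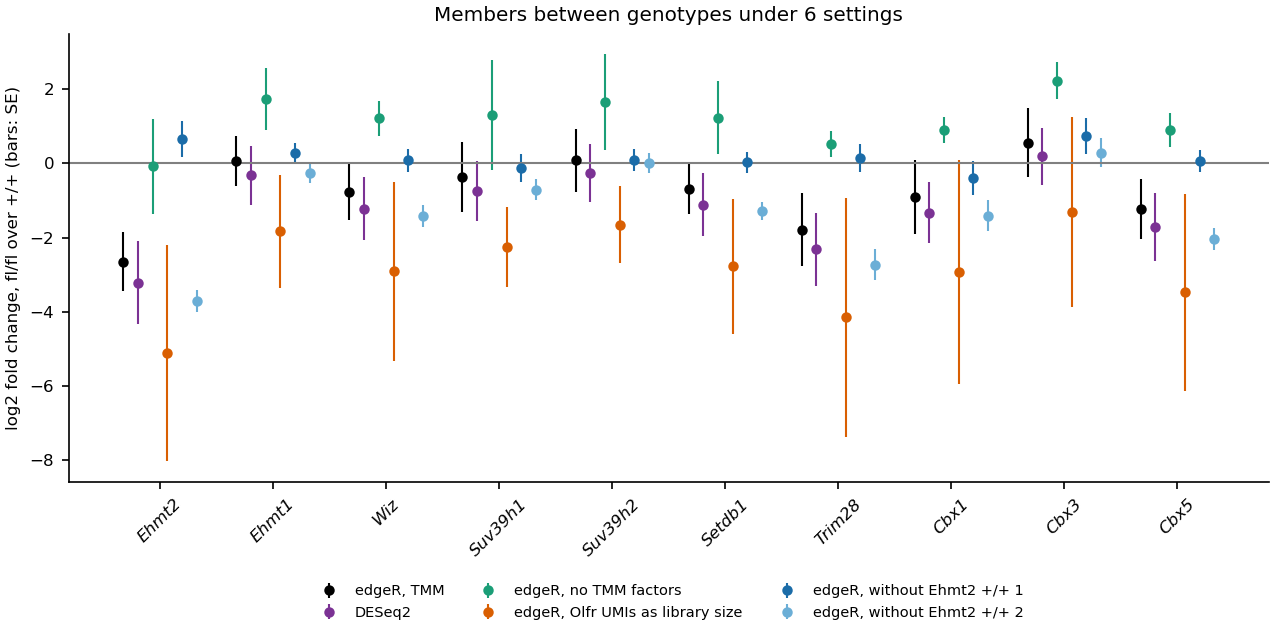
log2 fold change of each member, Ehmt2 fl/fl over Ehmt2 +/+, under 6 settings, with bars of 1 SE. Each member has values on both sides of 0, Ehmt2 from -5.12 to 0.66 and Cbx3 from -1.32 to 2.22.

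The genes that work with the members gave few calls. The list held 43 tested genes in 4 groups, of which 0 were called by edgeR. With 0.0947% of all genes called, a list of this size would rarely hold a call, so the 0 does not compare the rates. In edgeR 1 of the 43, Hdac2, had an unadjusted p under 0.05, beside 1005 of all 20066 genes. DESeq2, whose calls over all genes are given above, called that 1 gene. How many of the 43 had an adjusted p under DESeq2 was not counted. Of the 13 other histone and DNA methylation genes and their cofactors, 6 had a positive and 7 a negative log2 fold change (median -0.45), from 0.995 for Uhrf1, which links H3K9 methylation to DNA methylation, to -1.38 for Mecom (SE 0.78 and 0.85). Uhrf1 had 65, 68, 172 and 208 UMIs, or 1.48, 7.82, 24.6 and 24.5 CPM. It was higher in both Ehmt2 fl/fl sections, as were 91.1% of all genes. Its value in Ehmt2 +/+ 2 lay under the 95th percentile of the Olfr genes there (9.43 CPM). Beside Uhrf1, the 12 cycling markers summed to 45.7, 162, 366 and 424 CPM, and their part in the Uhrf1 values was not tested. Of the 15 genes of the HUSH complex and of HP1-associated proteins, 3 were positive and 12 negative (median -0.56), from 0.56 for Lrif1, an HP1-binding protein, to -2.15 for the histone deacetylase Hdac2 (SE 1.37 and 0.94, edgeR adjusted p of 0.876 and 0.872). Hdac2 had 1769, 135, 225 and 300 UMIs, or 40.4, 15.5, 32.1 and 35.3 CPM, highest in Ehmt2 +/+ 1 and lowest in Ehmt2 +/+ 2, as Ehmt2 was. The 11 H3K9 demethylases ran from 0.78 for Kdm4d to -1.09 for Kdm4a, with 3 positive and 8 negative (median -0.25). Outside Ehmt2 +/+ 1, Lrif1 had 27, 35 and 100 UMIs, under the Olfr median of each section. Kdm4d, with 16, 61, 84 and 128 UMIs, lay under the 95th percentile of the Olfr genes in every section. The Olfr genes had a median log2 fold change of 0.80 in this fit. The part of background counts in the Lrif1 and Kdm4d values was not tested. The 4 tested members of the PRC1.6 complex, in which Ehmt2 and Ehmt1 are found, ran from -0.34 for Max to -1.13 for Pcgf6, with 0 positive and 4 negative (median -0.42). In CPM Max stood at 5.16, 11.6, 21.0 and 23.9 and Pcgf6 at 10.4, 10.6, 19.1 and 21.9. Both were thus higher in both Ehmt2 fl/fl sections, as were 91.1% of all genes. Over all 20066 genes of the fit, 11271 were positive and 8795 negative. The signs of these lists are of the TMM fit, and were not counted under the scalings that turned members' signs.

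The genes closest to Ehmt2 over the 4 sections, by Euclidean distance between centred log2(CPM + 0.5) values, were Ddx50 (distance 0.21), an RNA helicase, Cdk16 (0.22), a cyclin-dependent kinase, and Phf10 (0.23), a subunit of a SWI/SNF chromatin remodelling complex. Each had its highest CPM in Ehmt2 +/+ 1 and its lowest in Ehmt2 +/+ 2, Cdk16 with 1187, 53, 115 and 132 UMIs (27.1, 6.09, 16.4 and 15.5 CPM). Outside Ehmt2 +/+ 1, Ddx50 had 12, 28 and 35 UMIs and Phf10 had 27, 53 and 67. Both lay under the Olfr medians of these sections (5.40, 8.28 and 12.8 CPM). Cdk16 lay above these medians, and some Olfr genes lay above it in each section. Ehmt2 also lay among the background there. With 4 sections this likeness is a description of 4 values. The member closest to Ehmt2 was Trim28, which ranked 231 by distance among the genes tested, and Ehmt1 ranked 8156.

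Within sections, spots were classed by their content and each class was set against the rest of the same section in enzyme-free CPM. Enzyme-rich spots, with at least 50% of UMIs from digestive enzyme genes, numbered 6063 and 6193 in the Ehmt2 +/+ sections and 54 and 62 in the Ehmt2 fl/fl sections. In Ehmt2 +/+ 1 Ehmt2 had 856 UMIs in enzyme-rich spots and 9 in the 120 other spots, which is 56.9 (53.2 to 60.8) and 48.8 (22.3 to 92.6) enzyme-free CPM. In Ehmt2 +/+ 2 it had 24 and 9 UMIs, or 9.29 (5.95 to 13.8) and 6.05 (2.77 to 11.5) enzyme-free CPM, and the intervals overlapped in both sections. In the enzyme-rich spots of Ehmt2 fl/fl 1 and Ehmt2 fl/fl 2, Ehmt2 had 0 UMIs of 32411 and 0 of 51802 outside the enzymes. Suv39h1 and Cbx5 also had 0 UMIs there in both sections. Each section taken alone, a count of 0 allows up to 92.6 and 57.9 enzyme-free CPM (3 counts). Both limits lie above the values of Ehmt2 in this class, 56.9 in Ehmt2 +/+ 1 and 9.29 in Ehmt2 +/+ 2. The sections were not pooled. These spots were 54 of 7587 and 62 of 8443 over tissue, and Pdx1-Cre acts in the epithelium as a whole. The class therefore does not set deleted against undeleted cells. Trim28, with 2310 and 20 UMIs in Ehmt2 +/+ 1, stood at 154 (147 to 160) and 108 (66.2 to 167) enzyme-free CPM, and in Ehmt2 +/+ 2 at 60.0 (50.9 to 70.2) and 65.2 (52.9 to 79.6).

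With the section as a factor, edgeR called 2.12% of 19918 genes between enzyme-rich and other spots and 0 of 10 members. At an unadjusted p under 0.05 were 2492 of these genes and 0 members. The members' log2 fold changes ran from -1.02 for Suv39h1 (SE 0.55, adjusted p = 0.430) to 0.56 for Ehmt2 (SE 0.51, adjusted p = 0.634). In the difference of this contrast between the genotypes edgeR called 0.0% of genes, with 696 at an unadjusted p under 0.05, and 0 members, with 2 at that unadjusted p. Lymphoid-marker spots numbered 1, 20, 82 and 120 in the same order of sections, islet-marker spots 94, 142, 281 and 88, and fibroblast-marker spots 12, 11, 54 and 73. Calls reached 0.276%, 0.793% and 0.182% of genes in these 3 classes and 0 of 10 members in each. At an unadjusted p under 0.05 were 2, 1 and 2 members. Beside them were 1543 of 19918 genes in the lymphoid, 1699 of 19935 in the islet and 2546 of 19823 in the fibroblast class. DESeq2 called 0 members in the 4 classes, but gave an adjusted p for 3 members in the enzyme-rich class, 3 in the lymphoid, 8 in the islet and 0 in the fibroblast class, so the rest could not be called by it.

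The counts behind these classes were small, and fold changes are not given for them. Over the 223 lymphoid-marker spots of all sections Ehmt2 had 1 UMI of 304703 outside the enzymes. The other members had from 5 UMIs (Setdb1 and Cbx5) to 53 (Cbx3). Of the 223 spots, 82 and 120 were in the Ehmt2 fl/fl sections, where Ehmt2 lay among the background. Over the 605 islet-marker spots Ehmt2 had 28 UMIs of 624560, of which 17 were in Ehmt2 +/+ 1 and 8 in Ehmt2 fl/fl 1, and Ehmt1 had 14. In the islet-marker spots of Ehmt2 +/+ 1 this came to 69.5 enzyme-free CPM (40.5 to 111), beside 56.6 (52.9 to 60.5) in the rest of that section, and the intervals overlapped. The 150 fibroblast-marker spots held 0 to 7 UMIs of each member, the most for Cbx3.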

How the data were processed

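Spatial transcriptomes of 4 sections were used, 2 for each genotype, with each section from its own numbered mouse, so p-values measure the spread between these sections. The authors made CytAssist Visium libraries and counted them with Space Ranger 2.0.1 (mm10), per the file headers and labels, and what they deposited is raw UMI counts per spot, in whole numbers, of 32589 features. The 304 features marked as deprecated were left out. A spot was taken as over tissue where its UMIs were above the trough between the 2 main peaks of a smoothed histogram of log10 UMIs. Slide barcodes are positions of a shared design: 13898 of 14336 occur in all 4 files, so they show no shared spots.

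Counts were summed per section, or per class of spots within it, and fitted by edgeR 4.0.16 under R 4.3.3, with TMM factors, its quasi-likelihood test, a filterByExpr minimum of 10 counts and p-values adjusted by Benjamini-Hochberg over every gene tested. The SE given for an edgeR log2 fold change was derived from the test: its absolute value divided by the square root of the F statistic. Class tests left out the digestive enzyme genes and had the section as a factor. Enzyme-rich spots had at least 50% of UMIs from 38 enzyme genes. The other classes had at least 3 UMIs of their markers and at least 10 (lymphoid), 200 (islet) or 100 (fibroblast) of these per 10000 UMIs. The pipeline was tested on simulated data. The lack of a call does not show that a gene is unchanged. Two-sided exact permutation tests compared CPM, shares and log2 ratios, and intervals (95%) are exact Poisson or binomial ones for counting error only. A count of 0 allows up to 3 counts. Python 3.11.15 and scipy 1.17.1 served for all else.

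The members, the lists and the pairs of members for ratios were chosen with earlier results of these data known. The text names all members, the highest and lowest gene of each pathway list or its called genes, and the 3 genes nearest to Ehmt2. Alternatives were DESeq2 1.42.0, no TMM factors, enzyme genes left out, summed Olfr UMIs as library size, no filter, every spot with at least 1 UMI, stricter class limits, thinning to 500 UMIs, and each section left out.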

Additional observations from a re-analysis of the deposited data

How the results depend on the processing

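The count of members called between the genotypes was 0 in each setting except without Ehmt2 +/+ replicate 2 (leave-one-out range 0 to 7). That of pathway genes was 0 except under DESeq2 (1, Hdac2), with Olfr UMIs as library size (2, Setdb2 and Dnmt3b) and without Ehmt2 +/+ replicate 2 (range 0 to 34). The counts in the classes of spots and in the difference of the enzyme-rich contrast were 0 throughout. DESeq2 gave no adjusted p for 7 members between the genotypes, 7 in the enzyme-rich, 7 in the lymphoid, 2 in the islet and 10 in the fibroblast class, so its counts of 0 say nothing of these. The alternatives of the difference of the enzyme-rich contrast were chosen after seeing the data. At the stricter limits both Ehmt2 fl/fl sections dropped out of the enzyme-rich class, Ehmt2 +/+ 1 out of the lymphoid class, and Ehmt2 +/+ 2 and Ehmt2 fl/fl 1 out of the fibroblast class, which then had fewer samples. Leaving out the enzymes, using no filter and using every spot turned no member's fold change.

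Signs turned as follows, and the cause was not tested. Without TMM factors the log2 fold changes became positive for Wiz (1.20), Suv39h1 (1.30), Setdb1 (1.22), Trim28 (0.52), Cbx1 (0.89) and Cbx5 (0.89). With Olfr UMIs as library size they became negative for Ehmt1 (-1.84), Suv39h2 (-1.66) and Cbx3 (-1.32), and under DESeq2 for Ehmt1 (-0.33) and Suv39h2 (-0.25). Leaving out 1 section gave ranges of -3.71 to 0.66 for Ehmt2, -0.28 to 0.28 for Ehmt1, -1.42 to 0.078 for Wiz, -0.054 to 0.21 for Suv39h2, -1.29 to 0.021 for Setdb1, -2.73 to 0.14 for Trim28 and -2.03 to 0.054 for Cbx5. Differences in the share of spots, in percentage points, ranged without 1 section from -11.3 to 0.740 for Ehmt2, -0.446 to 1.48 for Ehmt1, -4.95 to 1.76 for Wiz, -0.745 to 0.544 for Suv39h1, -2.45 to 0.948 for Setdb1, -23.6 to 3.11 for Trim28, -13.7 to 3.58 for Cbx1 and -8.19 to 1.54 for Cbx5. Thinned to 500 UMIs they became positive for Wiz (0.882), Suv39h1 (0.283), Setdb1 (0.547), Trim28 (0.833), Cbx1 (2.52) and Cbx5 (0.722), thinned to 500 UMIs outside the enzymes for Wiz (0.333), Suv39h1 (0.129) and Setdb1 (0.200), and over every spot for Suv39h1 (0.0165). Cbx3 and Suv39h2 kept a positive difference in share in each of these settings, Suv39h2 down to 0.0118 without Ehmt2 +/+ 2. In 3 sections Ehmt2 stood at 0.702 to 1.26 times the Olfr median, which limits what can be said of it there. No paired analysis was possible because the labels give each section a number of its own, and the replicate numbers used here follow accession order and pair no sections.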
